A study of Homo sapiens with 18 samples.

Results

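The NR4A rows of the count table are the orphan nuclear receptors NR4A1, NR4A2 and NR4A3 and NR4A1AS, an antisense transcript inside the NR4A1 gene span. They are 4 of the 36684 gene symbols counted. They were chosen as a family by name, after NR4A1 had been seen to be higher in the FFA-induced model than in the control and lower than in the model at all 3 doses of fucoxanthin. Those 4 contrasts are therefore described here for NR4A1, NR4A1AS and NR4A2 without a test. Tests were run only on the other contrasts. Those among Con and the FUCO groups follow from the 4 by subtraction and use the same libraries, so they are not independent of the choice. Those with RES share the libraries of their second group, which the choice used, so they are not independent of the choice either. NR4A3 did not pass the filter on low counts, so 3 of the 4 rows were tested.

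All libraries came from Hep3B, a human hepatocellular carcinoma line, and they fall into 6 groups of 3. Con had neither FFA nor a compound. Model received free fatty acids (FFA), the lipid load that makes the cells steatotic. FUCO-0.5, FUCO-1 and FUCO-2 received FFA together with fucoxanthin, a marine carotenoid, at 0.5, 1 and 2 μM. RES received FFA together with resmetirom, an agonist of the thyroid hormone receptor beta. Hep3B is a single transformed line, and the FFA level, the times and the RES dose of these particular libraries are not given in the sources used here.

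NR4A receptors are transcription factors that act without a known physiological ligand, so their activity follows mainly from how much protein is made. Their genes are immediate early genes. They are switched on within a short time by growth factors, cAMP, calcium, fatty acids or stress, and their transcripts are short-lived. In liver, cAMP raised by glucagon induces them through CREB and its CRTC coactivators, and NR4A1 has been linked there to glucose production and to lipid synthesis. The proteins bind the NBRE, an 8-base element read by a monomer, and NR4A1 and NR4A2 can also pair with RXR.

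In GENCODE v44 on GRCh38, NR4A1 lies at chr12:52022832-52059507 on the plus strand, and its canonical transcript has 7 exons and 2485 bases. NR4A1AS lies on the minus strand at chr12:52058459-52059503, within the last part of that gene. Of the 915 exon bases of NR4A1AS, 754 (82.4%) are also exon bases of NR4A1. The strand setting of the counting is not given in the sources used here, so reads of NR4A1 and NR4A1AS in the shared bases cannot be told apart. NR4A2 lies at chr2:156324437-156342348 on the minus strand, and NR4A3 at chr9:99821855-99866891 on the plus strand.

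The bases before the gene starts were searched for TGACG, the core of the cAMP response element bound by CREB, for the full palindrome TGACGTCA, and for the NBRE letters AAAGGTCA. Both strands were read, and each full palindrome also holds the core on both strands. Windows come from RefSeq on GRCh38.p14 and cover up to 250 bases before a start. The NR4A2 window is not in the table. The sequences are shown for NR4A1, for NR4A3, which was barely counted in these cells, and for DUSP1, the gene whose pattern was nearest to NR4A1 (among the nearest genes given later). DUSP1 encodes a phosphatase that switches off MAP kinases. Capitals mark TGACG, or CGTCA where it is on the other strand.
NR4A1, chr12:52037465-52037714, plus strand: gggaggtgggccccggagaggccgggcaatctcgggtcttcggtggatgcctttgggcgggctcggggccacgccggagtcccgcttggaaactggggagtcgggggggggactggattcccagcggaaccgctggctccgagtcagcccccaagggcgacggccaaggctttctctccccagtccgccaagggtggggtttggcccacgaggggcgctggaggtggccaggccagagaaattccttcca
NR4A3, chr9:99821635-99821854, plus strand: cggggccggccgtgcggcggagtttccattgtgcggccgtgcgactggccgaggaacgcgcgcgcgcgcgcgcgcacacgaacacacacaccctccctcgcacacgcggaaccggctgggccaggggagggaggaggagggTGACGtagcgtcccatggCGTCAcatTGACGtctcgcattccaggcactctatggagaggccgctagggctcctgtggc
DUSP1, chr5:172771196-172771445, minus strand: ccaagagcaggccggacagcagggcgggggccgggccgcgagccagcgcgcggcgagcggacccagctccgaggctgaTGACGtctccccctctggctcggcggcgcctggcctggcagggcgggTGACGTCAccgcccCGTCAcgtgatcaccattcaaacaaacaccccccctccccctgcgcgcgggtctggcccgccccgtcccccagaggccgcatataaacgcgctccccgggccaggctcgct

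NR4A3 held the core at 3 positions, 109, 91 and 83 bases before the start, and no full palindrome. DUSP1 held it at 4 positions, 172, 125, 122 and 111 bases before the start, the middle pair being one full palindrome. The NR4A1 window had none, nor had a second listed NR4A1 window at chr12:52022582-52022831. These windows precede starts that lie 13727 and 28610 bases upstream of the start of the canonical transcript, so the bases before that start were not searched. Over all 35116 RefSeq windows, 21.2% held TGACG, 1.6% TGACGTCA and 1.0% AAAGGTCA. None of the 3 sequences held the NBRE letters.

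The 18 libraries held 16916688 to 23083498 counts, and the 14557 tested genes took 99.9437% of them. Whether each mate of a read pair or each pair was counted is not given in the sources used here. The libraries carried hepatocyte transcripts: all 10 hepatocyte markers averaged at least 1 CPM in every group. Their summed level was 62679 to 70562.3 CPM in Con, 51995.5 to 52466.8 in Model, 43481.2 to 54559.2 in FUCO-0.5, 46231.9 to 48759.1 in FUCO-1, 35148.7 to 39430.3 in FUCO-2 and 15199 to 15613.9 in RES. Of 8 markers of blood, endothelial and stromal cells, COL1A1 averaged at least 1 CPM in every group, PECAM1 in Model and the FUCO groups, and COL1A2 in RES. The 8 summed to 1.13 to 4.52 CPM per library, and KDR and ACTA2 were at 0 throughout. In a principal component analysis the RES libraries stood apart on the first component (47.0% of the variance), and Con replicate 1 stood somewhat apart from the other Con libraries on the second. In bulk RNA, fewer cells with a transcript and less of it per cell cannot be told apart.

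NR4A1 was the most abundant of the 4. Levels are given in CPM, with library sizes adjusted by TMM factors. NR4A1 read 36.5, 30.8 and 30.6 CPM in the Con libraries and 69.7, 66.4 and 65.4 CPM in the Model libraries, so every Model library lay above every Con library, as did those of 17.9% of all tested genes. With FUCO the values were 37.3, 21.7 and 24.1 CPM at 0.5 μM, 16.1, 16.3 and 16.2 CPM at 1 μM, and 39.1, 22.6 and 26.6 CPM at 2 μM. All 9 FUCO libraries lay below all Model libraries, an absence of overlap shared by 9.85%, 12.3% and 17.7% of tested genes at the rising doses. Replicate 1 was clearly the high library at both 0.5 and 2 μM, and it was the highest of its group in 5 of the 6 groups, all but FUCO-1, where the libraries were nearly equal. RES gave 54.6, 43.8 and 48.9 CPM, between Model and Con and overlapping neither, where 31.8% of tested genes had no overlap below Model and 32.8% none above Con.

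**Figure D1:**
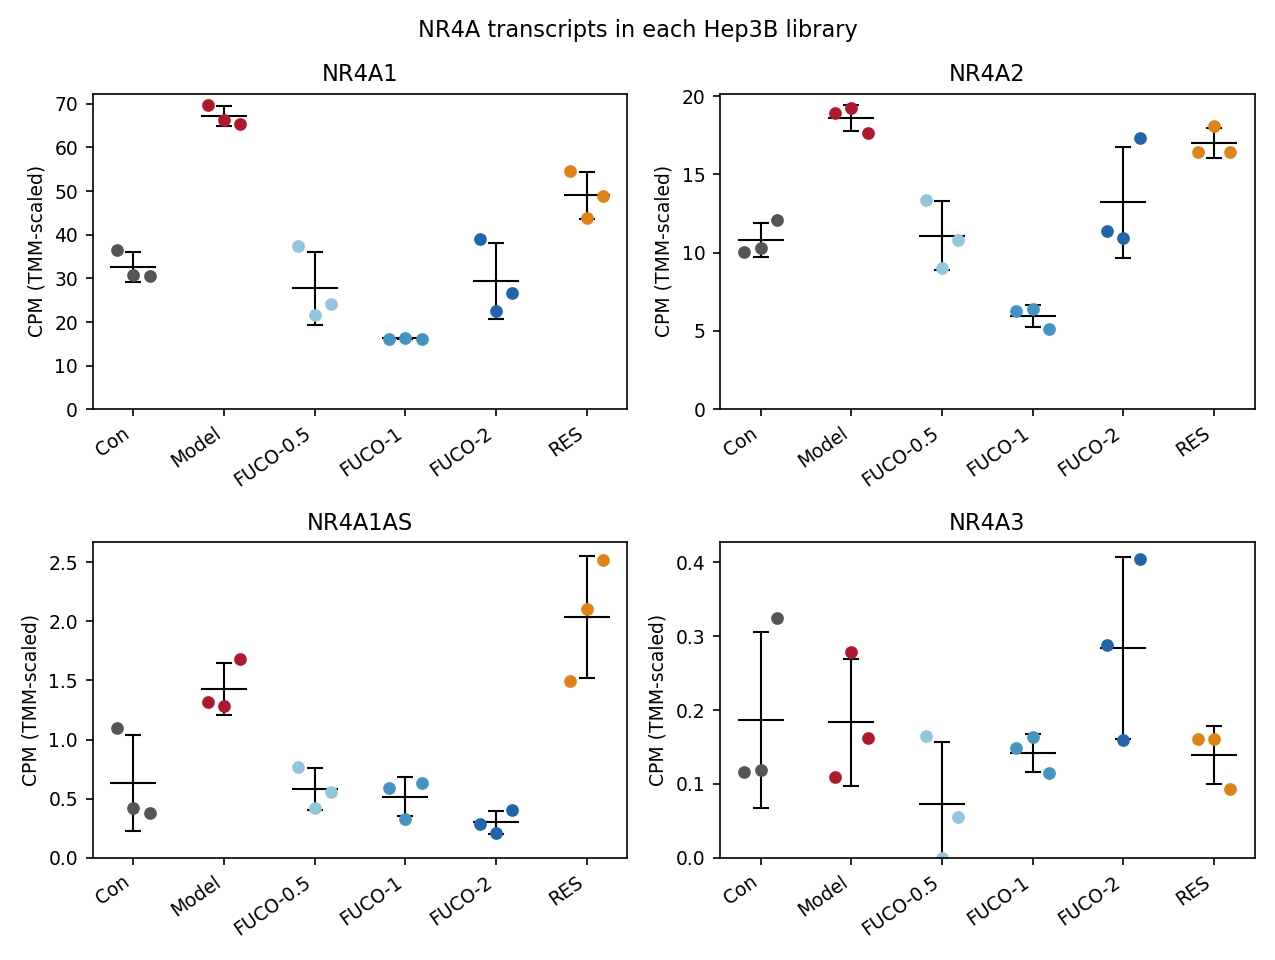
Level of NR4A1, NR4A2, NR4A1AS and NR4A3 in each of the 18 libraries (points, TMM-scaled CPM, linear axes that start at 0 and differ between panels), with the group mean (long bar) and SD (n = 3). NR4A1 and NR4A2 are highest in Model and lowest in FUCO-1, NR4A1AS is highest in RES, and NR4A3 stays under 0.5 CPM.

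The NR4A1 mean was 32.6 ± 3.38 CPM in Con and 67.2 ± 2.26 in Model (SD, n = 3 here and for each group mean that follows), a log2 fold change of 1.04 (SE 0.16). Against Model, the FUCO-0.5 mean of 27.7 ± 8.41 CPM was a log2 fold change of −1.28 (SE 0.16). The FUCO-1 mean of 16.2 ± 0.0946 CPM was one of −2.05 (SE 0.17), and the FUCO-2 mean of 29.4 ± 8.63 CPM one of −1.19 (SE 0.16). The dose order was therefore not monotonic: the middle dose gave the lowest level. These values are descriptions, since they led to the choice of the family.

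The tested contrasts show the same middle dose apart from both the control and the highest dose. Those among Con and the FUCO groups are differences of the values just described, so their p-values add no independent evidence for the pattern. FUCO-1 was below Con for NR4A1 (log2 fold change −1.01, SE 0.17, edgeR quasi-likelihood test, adjusted p = 0.000139), with no overlap of libraries. In FUCO-1 against Con, 10.1% of all tested genes were lower at an adjusted p under 0.05 and 15.6% were lower without overlap. FUCO-2 was above FUCO-1 (log2 fold change 0.86, SE 0.17, edgeR adjusted p = 0.00336), in a contrast where 4.07% of tested genes were higher and 11.1% higher without overlap. FUCO-0.5 and FUCO-2 did not differ from Con by the test, at −0.24 (95% interval −0.57 to 0.10, edgeR adjusted p = 0.321) and −0.15 (−0.49 to 0.18, 0.543), where 21.9% and 24.8% of tested genes passed. Each of these 2 contrasts passed the threshold, at −0.51 and −0.41, once the high replicate 1 of its FUCO group was left out (edgeR adjusted p = 0.0230 and 0.0486). FUCO-1 against FUCO-0.5 was −0.77 (−1.12 to −0.42), with no overlap of libraries, as in 7.36% of genes, but an edgeR adjusted p of 0.108, in a contrast where 1 of 14557 genes (0.00687%) passed. It passed when only these 2 groups entered the fit (edgeR adjusted p = 0.0130).

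NR4A1 in RES lay between Model and Con. Against Model the log2 fold change was −0.45 (SE 0.15, edgeR adjusted p = 0.0163), and against Con NR4A1 was still higher by 0.59 (SE 0.16, edgeR adjusted p = 0.00242). Large shares of all genes passed in both contrasts: 25.1% were lower in RES than in Model, and 28.8% were higher in RES than in Con. The fall against Model did not pass in DESeq2 (adjusted p = 0.0713), nor in edgeR without Model replicate 1 (0.0525) or without RES replicate 2 (0.0805). RES was above FUCO-0.5, FUCO-1 and FUCO-2 by 0.83, 1.60 and 0.74 on the log2 scale, with edgeR adjusted p values of 0.000122, 1.9e-08 and 0.000404. The shares of genes higher in RES in these contrasts were 24.4%, 26% and 22.5%. The Con, Model and FUCO libraries that RES is set against led to the choice of NR4A1. The RES p-values are therefore not independent of that choice.

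NR4A2, the paralog best known for its part in dopamine neurons, followed NR4A1 at a lower level. It read 10.1, 10.3 and 12.1 CPM in Con and 18.9, 19.2 and 17.7 CPM in Model, without overlap. The shares of all tested genes without overlap are those given for NR4A1. The FUCO libraries read 13.4, 8.99 and 10.8 CPM at 0.5 μM, 6.29, 6.39 and 5.14 CPM at 1 μM, and 11.4, 10.97 and 17.3 CPM at 2 μM. All of them lay below all Model libraries, but FUCO-2 replicate 3, at 17.3 CPM, came close to the lowest of these. With CPM by library total that library, at 17.7, lay above the lowest Model library, at 17.2, and the absence of overlap was lost. The RES libraries, at 16.4, 18.1 and 16.4 CPM, overlapped Model.

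The NR4A2 log2 fold changes that belong to the choice of the family were 0.78 (SE 0.15) for Model against Con, and −0.75 (SE 0.15), −1.64 (SE 0.16) and −0.49 (SE 0.14) for FUCO-0.5, FUCO-1 and FUCO-2 against Model. Among the other contrasts, FUCO-1 was below Con (−0.86, SE 0.16, edgeR adjusted p = 0.000584) and FUCO-2 above FUCO-1 (1.15, SE 0.16, edgeR adjusted p = 9.74e-05). Contrasts among Con and the FUCO groups are again differences of the values just given. Their p-values add no independent evidence for the pattern. FUCO-0.5 and FUCO-2 were at 0.03 (95% interval −0.29 to 0.35, edgeR adjusted p = 0.916) and 0.29 (−0.03 to 0.60, 0.181) against Con. RES differed from Con (0.65, SE 0.15, edgeR adjusted p = 0.000585). Against Model it was at −0.13 (95% interval −0.42 to 0.15), which did not pass (edgeR adjusted p = 0.451). FUCO-1 against FUCO-0.5 was −0.89 (SE 0.16), again without overlap and just over the threshold (edgeR adjusted p = 0.0610). It too passed with only the 2 groups in the fit (edgeR adjusted p = 0.00878).

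NR4A1AS was sparse, with 4 to 54 counts per library. The Con libraries held 19, 7 and 7 of them, Model 24, 23 and 31, and RES 37, 39 and 54. With FUCO the counts were 14, 8 and 10 at 0.5 μM, 12, 6 and 11 at 1 μM, and 5, 4 and 7 at 2 μM. RES was the highest group and FUCO-2 the lowest, an order that NR4A1 did not have. Con replicate 1, at 19 counts, lay well above the other 2 Con libraries.

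For NR4A1AS the log2 fold changes were 1.17 (SE 0.35) for Model against Con and −1.29 (SE 0.36), −1.45 (SE 0.36) and −2.23 (SE 0.41) for FUCO-0.5, FUCO-1 and FUCO-2 against Model, as a description. No Model library overlapped a Con or a FUCO library. Of all tested genes 17.9% showed this for Model above Con, and 9.85%, 12.3% and 17.7% for the rising FUCO doses below Model. Without Con replicate 1 the first value was 1.82. RES was above Con (1.67, SE 0.33, edgeR adjusted p = 0.000123) and above FUCO-2 (2.73, SE 0.38, edgeR adjusted p = 2.39e-06). RES against Model was 0.50 (95% interval −0.08 to 1.08), which did not pass (edgeR adjusted p = 0.142). FUCO-2 against FUCO-1 was −0.78 (95% interval −1.80 to 0.25, edgeR adjusted p = 0.411), against rises of NR4A1 and NR4A2 in the same contrast. Whether these reads come from the antisense strand was not tested.

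NR4A3, the remaining paralog, was close to absent. The libraries held 2, 2 and 6 counts in Con, 2, 5 and 3 in Model, 3, 0 and 1 in FUCO-0.5, 3, 3 and 2 in FUCO-1, 5, 3 and 7 in FUCO-2, and 4, 3 and 2 in RES. The highest library, FUCO-2 replicate 3, stood at 0.405 CPM. The groups overlapped in every contrast, and no difference was detectable at this depth.

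**Figure D2:**
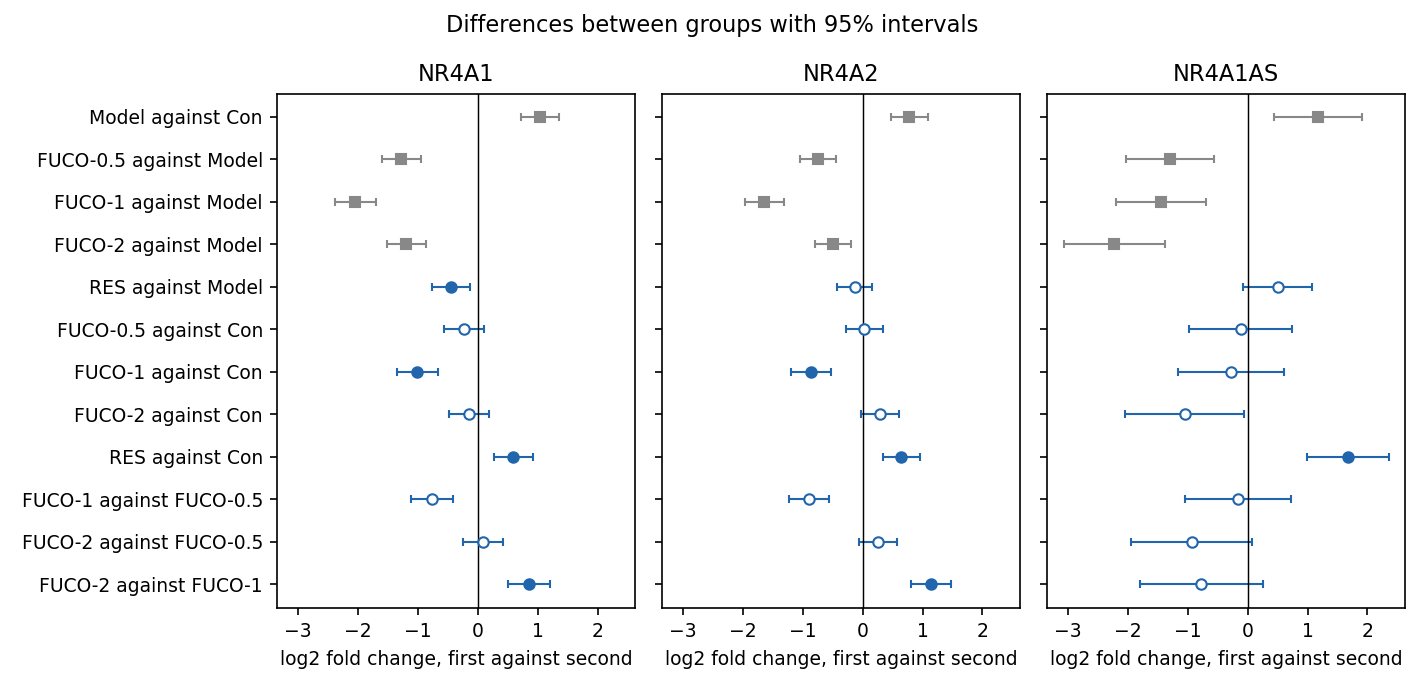
Log2 fold change (first group against second, x axis) of NR4A1, NR4A2 and NR4A1AS in 12 contrasts, with 95% intervals from the edgeR fit of all 18 libraries. Grey squares are the 4 contrasts that led to the choice of the family and carry no test, filled circles passed an adjusted p under 0.05 and open circles did not. FUCO-1 against Con is filled and left of 0 for NR4A1 and NR4A2, and RES against Con is filled and right of 0 for all 3.

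The order of the group means for NR4A1 was Model, RES, Con, FUCO-2, FUCO-0.5 and FUCO-1. Model and RES differed, and so did RES and Con, whereas Con and FUCO-2, FUCO-2 and FUCO-0.5, and FUCO-0.5 and FUCO-1 did not pass as neighbours. For NR4A2 the order was Model, RES, FUCO-2, FUCO-0.5, Con and FUCO-1, but with CPM by library total the Model and RES means were both 18.2. Here Con and FUCO-1 differed, and RES and FUCO-2 did so at an edgeR adjusted p of 0.0408 with overlapping libraries, a call lost without any 1 of the RES libraries, without FUCO-2 replicate 1 or 2, or without FUCO-1 replicate 1. Model and RES, FUCO-2 and FUCO-0.5, and FUCO-0.5 and Con did not pass. For NR4A1AS the order was RES, Model, Con, FUCO-0.5, FUCO-1 and FUCO-2, and no pair of tested neighbours passed. A pair that did not pass is not thereby shown to be equal.

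The proportion between the members also differed between libraries, and for NR4A1AS it rests on only 4 to 54 counts per library. NR4A1AS counts came to 1.89, 1.93 and 2.57% of the NR4A1 counts in Model, to 0.736, 0.943 and 1.53% in FUCO-2, and to 2.74, 4.80 and 5.15% in RES. The 3 groups did not overlap. Con ranged from 1.24 to 3.01% and overlapped all 3. FUCO-0.5 ranged from 1.93 to 2.31% and FUCO-1 from 2.01 to 3.87%. RES against Model and FUCO-2 against FUCO-1 each gave a two-sided exact permutation p of 0.1, the smallest that 3 against 3 libraries can give, so none of the 22 ratio comparisons made could pass 0.05 in this test. NR4A2 counts were 27.1, 29.0 and 27.0% of NR4A1 counts in Model, and 29.2 to 65.1% in FUCO-2, where replicate 1 had the highest NR4A1 level and replicate 3 the highest NR4A2 level.

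**Figure D3:**
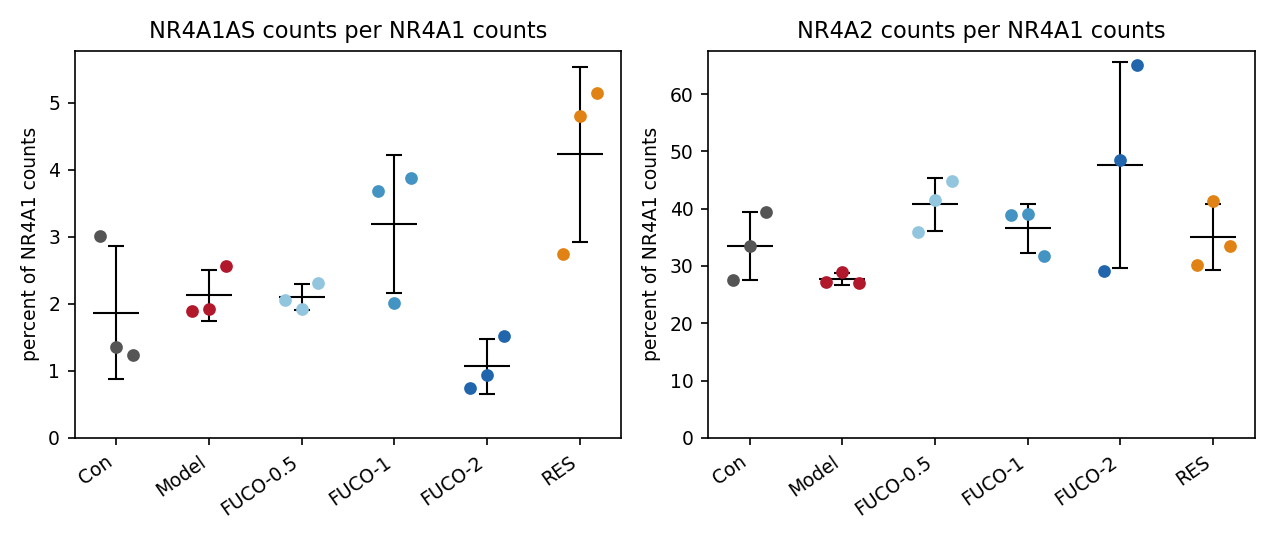
Counts of NR4A1AS (left) and NR4A2 (right) as a percentage of the NR4A1 counts of the same library (points), with group mean (long bar) and SD (n = 3). NR4A1AS per NR4A1 is lowest in FUCO-2 (0.736 to 1.53%) and highest in RES (2.74 to 5.15%), and NR4A2 per NR4A1 is tightest in Model.

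Per kilobase of canonical transcript, NR4A1 stood at 27.0 CPM in Model, NR4A2 at 5.36, NR4A1AS at 2.63 and NR4A3 at 0.0327. Among 25 orphan nuclear receptors ranked on this scale, NR4A1 was 9th in Con, 5th in Model and RES, and 10th, 11th and 10th in FUCO-0.5, FUCO-1 and FUCO-2. In Model it came after NR2F6 (88.5 CPM per kilobase), NR0B2 (81.6), HNF4A (72.1) and ESRRA (31.7). NR4A2 ranked between 12th and 14th and NR4A3 between 20th and 22nd. Of the 22 orphan receptors outside the family, 17 were tested. In Model against Con NR5A1 was higher, at low levels of 0.134 CPM in Con and 0.674 in Model. In the same contrast NR0B2, NR1D1 and RORA were lower. Of all genes 8.43% passed as higher and 9.12% as lower. NR0B2, the small heterodimer partner that represses other receptors, and RORA, a clock-linked receptor, were among the lower ones (−0.50, SE 0.10, edgeR adjusted p = 0.000774, and −0.68, SE 0.15, 0.00182). NR0B2 was also the one receptor of the list to pass in FUCO-0.5 against Model (−0.76, SE 0.10, edgeR adjusted p = 2.8e-05) and in FUCO-1 against Model (−0.54, SE 0.10, edgeR adjusted p = 0.00174), from 95.1 ± 1.96 to 65.6 ± 6.49 CPM. In FUCO-2 against Model NR0B2, NR2F2 and NR5A2 were lower and none was higher, where 9.71% and 10.8% of all genes were, and 1 of these 3 calls was left without Model replicate 3. In RES against Model NR1D1, NR2C2 and HNF4G were higher and 10 lower, where 24.4% and 25.1% of all genes were, with a median of −0.41 beside 0.00 for all tested genes.

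The nearest patterns to NR4A1 and NR4A2 were sought among 13075 other genes with a mean of at least 1 CPM, as the smallest root mean square difference in log2 CPM from the Con mean over all 18 libraries. For NR4A1 they were DUSP1 (0.23), CCN1 (0.29), GADD45B (0.32), BTG2 (0.33) and JUN (0.34), beside a median of 0.73 over all candidates. For NR4A2 they were CCN2 (0.33), BTG2 (0.35), CCN1 (0.35), DUSP10 (0.35) and PHLDA1 (0.35), beside a median of 0.63. NR4A1 and NR4A2 themselves were 0.35 apart, whereas NR4A1AS was 0.70 from NR4A1. These libraries share their groups and their scaling, and the measure is a description. RefSeq windows were found for 7 of these 8 genes. TGACG lay in those of BTG2, DUSP1 and JUN, and in those of 24.9% of all 27305 genes with a window.

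**Figure D4:**
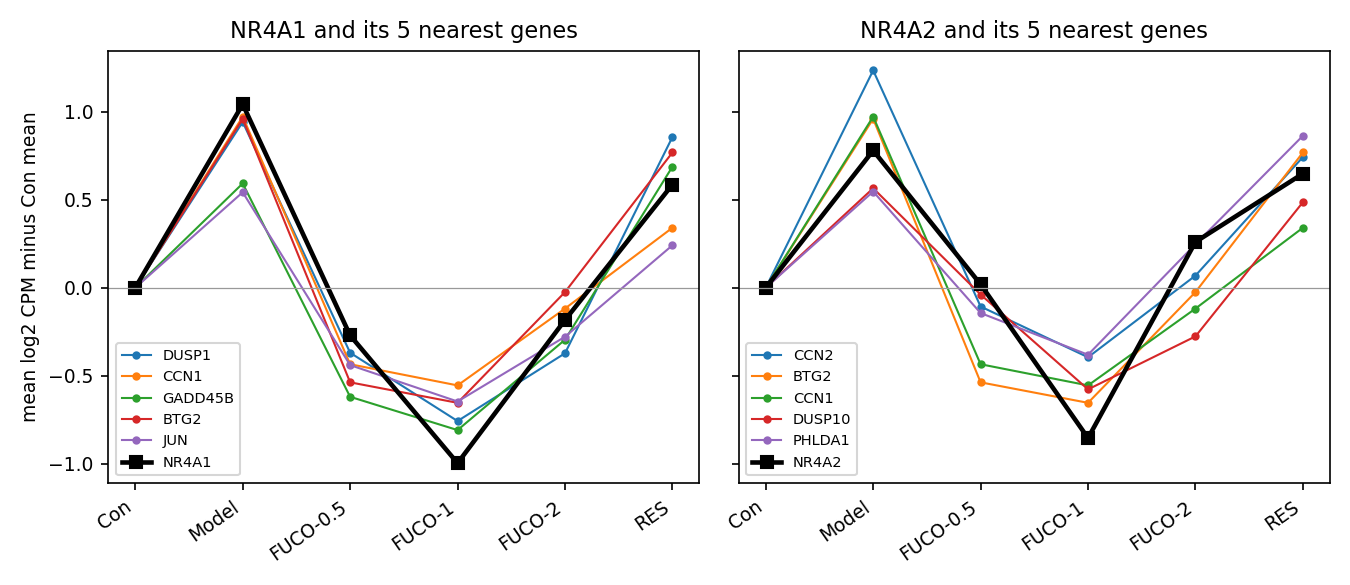
Mean log2 CPM of each group minus the Con mean (y axis) for NR4A1 (left) and NR4A2 (right), in black, and for the 5 genes nearest to each (coloured lines). All lines rise in Model and are lowest in FUCO-1, and NR4A1 and NR4A2 lie furthest below Con at FUCO-1.

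Genes around the family were then read in 8 lists written from general knowledge, but with earlier results of these data known. Their counts and p-values describe the lists and are not independent support for the pattern of the family. All 5 contrasts that follow share the Model libraries. The CREB route, which carries the cAMP signal to these genes, had 14 tested genes. Of these 1 was lower and none higher in Model against Con, where 9.12% and 8.43% of all genes were, and none passed in FUCO-0.5 against Model or FUCO-1 against Model, where 1.45% and 3.21% of all genes passed. The 1 was CRTC1, a CREB coactivator, at 53.4 ± 2.69 CPM in Con and 35.1 ± 3.05 in Model (−0.60, SE 0.12, edgeR adjusted p = 0.00120). In FUCO-2 against Model ATF1 was higher and PRKACA and SIK2 were lower, where 10.8% and 9.71% of all genes passed. Of these 3 calls 1 was left without Model replicate 1 or FUCO-2 replicate 2. In RES against Model ATF1, PRKACA and PRKAR2A were higher and CRTC1, CREBBP, SIK2 and SIK3 lower, where 24.4% and 25.1% of all genes passed. Of these 7 calls 4 were left without Model replicate 1 or 2 or RES replicate 2 or 3. SIK2, a salt-inducible kinase that holds CRTC proteins in the cytoplasm, fell most (−0.54, SE 0.08, edgeR adjusted p = 6.66e-06).

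MEF2 and SRF, with their histone deacetylase partners, are the other known route to NR4A transcription. Of 13 tested genes 3 were higher (HDAC9, MEF2C and ELK3) and 3 lower (HDAC5, ELK4 and HDAC4) in Model against Con, beside 8.43% and 9.12% of all genes. These 6 calls became 2 without Con replicate 3 and 3 without Model replicate 2. None passed at any FUCO dose against Model, where 1.45% and 3.21% of all genes passed at 0.5 and 1 μM, and 10.8% were higher and 9.71% lower at 2 μM. HDAC9 (0.82, SE 0.16, edgeR adjusted p = 0.000746) and MEF2C (0.62, SE 0.17, 0.0131) rose in Model, while HDAC5 fell (−0.58, SE 0.12, 0.000998). In RES against Model ELK1 was higher, and MEF2A, MEF2C, HDAC5, HDAC7 and HDAC9 were lower, beside 24.4% and 25.1% of all genes, HDAC9 the most (−1.12, SE 0.16, edgeR adjusted p = 2.95e-06).

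Targets of cAMP and CREB went both ways in Model. Of 14 tested, 5 were higher (SIK1, AREG, FOSB, DUSP1 and ATF3) and 4 lower (PPARGC1A, PDE4B, PDE4D and CGA) against Con, beside 8.43% and 9.12% of all genes, and 5 of the 9 calls were left without Con replicate 2 or Model replicate 2. DUSP1 rose from 156 ± 11.5 to 299 ± 19.96 CPM (0.94, SE 0.09, edgeR adjusted p = 2.04e-07), and PDE4B, which breaks down cAMP, fell from 6.02 ± 0.833 to 1.96 ± 0.0971 CPM (−1.62, SE 0.21, 5.78e-06). Against Model, 4 were lower in FUCO-0.5, 6 in FUCO-1 and 4 in FUCO-2, where 1.16%, 2.32% and 9.71% of all genes were lower. None was higher at the first 2 doses, where 0.289% and 0.893% of all genes were, and IRS2 and AREG were at 2 μM, where 10.8% were. The 6 calls at 2 μM became 3 without FUCO-2 replicate 2. SIK1, FOSB, DUSP1 and ATF3 were lower at each dose. Of the falls that passed in FUCO-1 the largest were those of the stress factor ATF3 (−2.37, SE 0.13, edgeR adjusted p = 9.27e-12), DUSP1 (−1.70, SE 0.10, 9.4e-12) and FOSB (−1.62, SE 0.23, 7.57e-05), which also stand in the list of immediate early genes. The list medians were −0.35, −0.43 and −0.27, beside 0.00, 0.00 and 0.01 for all tested genes. With RES 3 were higher and 7 lower than in Model, beside 24.4% and 25.1% of all genes. AREG, an EGF receptor ligand, rose most (1.36, SE 0.16, edgeR adjusted p = 1.74e-07), followed by PPARGC1A, a coactivator of gluconeogenesis and mitochondrial genes (0.97, SE 0.13, 1.31e-06), and RGS2.

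The immediate early genes, to which NR4A1 belongs by its biology, were mostly higher in Model and mostly lower with FUCO. Of 31 tested genes, 19 were higher and 1, DUSP5, was lower in Model against Con, beside 8.43% and 9.12% of all genes. EGR2 (1.30, SE 0.21, edgeR adjusted p = 0.000101), CCN2 (1.24, SE 0.09, 1.01e-09) and IER3 (1.13, SE 0.21, 0.000502) rose most. In FUCO-0.5, FUCO-1 and FUCO-2 against Model 27, 27 and 21 were lower and 0, 0 and 2 higher, the last being FOSL1 and IER5. Of all genes 1.16%, 2.32% and 9.71% were lower at these doses and 0.289%, 0.893% and 10.8% higher. In RES against Model 8 were lower and 6 higher, beside 25.1% and 24.4% of all genes. The medians were 0.51 in Model against Con, −0.97, −1.13 and −0.48 at the rising FUCO doses, and −0.09 in RES. FUCO-2 was above FUCO-1 in 24 of them and below in none, where 4.07% of all genes were higher and 2.23% lower. EGR2, a zinc finger factor, fell furthest of those that passed in FUCO-1 against Model, from 7.07 ± 1.31 to 0.604 ± 0.0787 CPM (−3.53, SE 0.27, edgeR adjusted p = 2.25e-09). KLF2, a Kruppel-like factor, followed at −2.74 (SE 0.19, edgeR adjusted p = 4.35e-10). In RES against Model KLF4 rose (1.52, SE 0.28, edgeR adjusted p = 7.07e-05) and KLF6 fell (−0.79, SE 0.10, 2.33e-07).

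**Figure D5:**
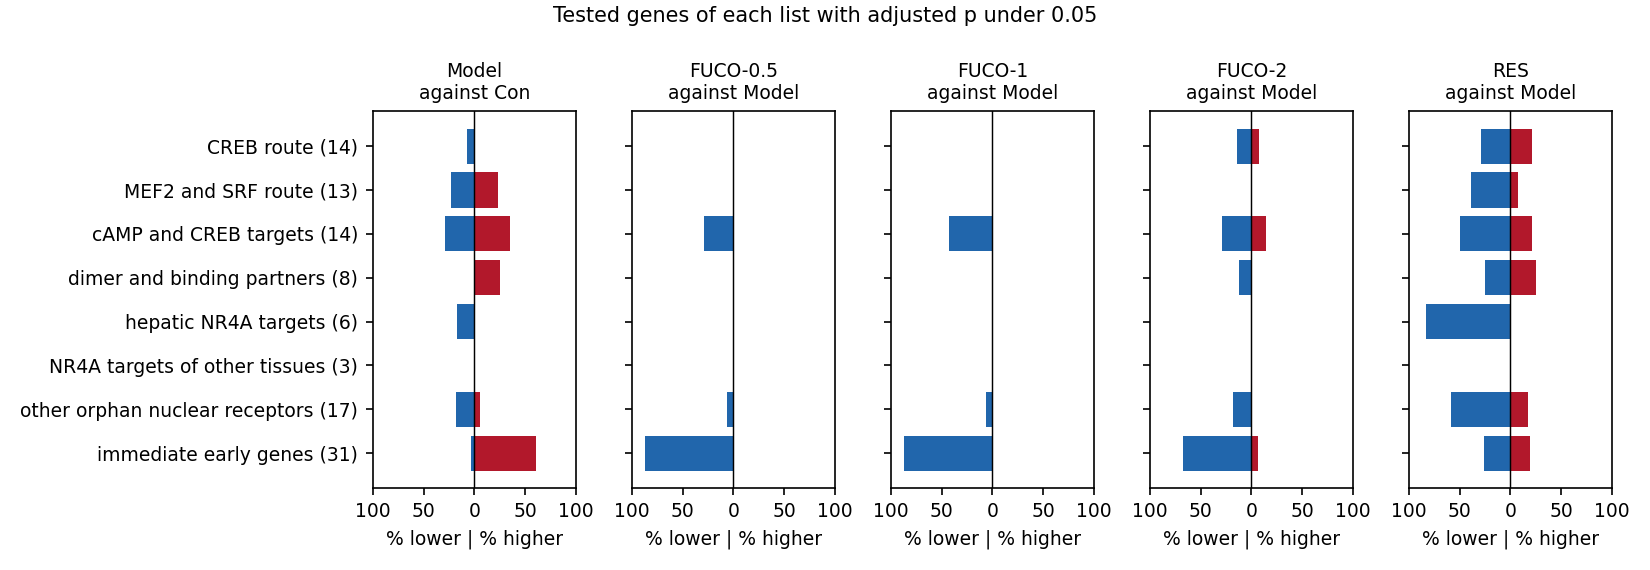
Share of the tested genes of each list (number in brackets) with an adjusted p under 0.05, lower to the left and higher to the right, in 5 contrasts. Immediate early genes are mostly higher in Model and mostly lower at each FUCO dose, whereas hepatic NR4A targets pass almost only in RES against Model.

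Of 8 genes that NR4A receptors are reported to control in liver, 6 were tested. In Model against Con 1 was lower, SREBF1, a regulator of lipid synthesis (−0.34, SE 0.11, edgeR adjusted p = 0.0354), where 9.12% of all genes were lower, and none passed at any FUCO dose against Model, where the shares are those given above. The SREBF1 call was lost without Con replicate 1 or 3 or any single Model library. Without FUCO-2 replicate 1, SREBF1 also passed as lower in FUCO-0.5 and in FUCO-2, without FUCO-2 replicate 3 G6PC1 did so in FUCO-2, and without Con replicate 1 FBP1 and APOA5 passed as higher in Model against Con. ENO3, a muscle-type enolase, was at 99.2 ± 5.99 CPM in FUCO-1 and 82.9 ± 5.84 in Model (0.26, SE 0.09, edgeR adjusted p = 0.147). FBP1, a gluconeogenic enzyme, was at 15.9 ± 2.94 in FUCO-1 and 15.1 ± 2.54 in Model (0.07, SE 0.15, edgeR adjusted p = 0.860). Whether NR4A1 acts on these genes in these cells was not tested. PCK1, another gluconeogenic enzyme, was practically absent throughout and was not tested. It averaged 0.0193 ± 0.0334 CPM in Con and had no counts in the 5 groups given FFA. In RES against Model, where 25.1% of all genes were lower, 5 of 6 were lower, including SREBF1, FBP1, APOA5, which raises triglyceride clearance (−2.60, SE 0.45, edgeR adjusted p = 4.16e-05), the glucose transporter SLC2A2 (−1.74, SE 0.34, 0.000140) and ENO3 (−1.62, SE 0.10, 1.9e-12). APOA5 went from 1.62 CPM in Model to 0.264 in RES, and SLC2A2 from 2.34 to 0.701. G6PC1, also tested, stood at 0.421 CPM in Model. The FUCO and RES results for these weakly counted genes rest on low levels. The summed hepatocyte markers were lower in RES too, as given above, and their part in this result was not tested. In RefSeq windows found for 7 of the 8 genes, the NBRE letters lay in those of APOA5 and ENO3, against 1.3% of all 27305 genes with a window. Of 11 targets known from adrenal gland, neurons and other tissues, 3 were tested and none passed in any of the 5 contrasts. The shares of all genes that passed are those given above, so 3 genes say little here.

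Of the proteins that pair with or bind NR4A receptors, 8 of 9 were tested. In Model against Con PIAS3 and KDM1A were higher and none was lower, beside 8.43% and 9.12% of all genes, PIAS3, a SUMO ligase, rising from 14.2 ± 1.27 to 22.6 ± 2.30 CPM (0.67, SE 0.10, edgeR adjusted p = 3.02e-05). None passed in FUCO-0.5 or FUCO-1 against Model, where 1.45% and 3.21% of all genes passed. In FUCO-2 against Model, where 9.71% of all genes were lower and 10.8% higher, PIAS3 was lower (−0.27, edgeR adjusted p = 0.0465). Leaving out most single libraries ended this call. RXRA, the heterodimer partner, was at 186 ± 7.56 CPM in Model and 203 ± 28.4 in FUCO-1 (0.13, SE 0.10, edgeR adjusted p = 0.569), and fell to 85.2 ± 3.96 CPM in RES (−1.13, SE 0.10, edgeR adjusted p = 1.6e-09). KDM1A was also lower in RES against Model, and PIAS3 and RCOR1 were higher, beside 25.1% and 24.4% of all genes.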

How the data were processed

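RNA-seq of 18 Hep3B libraries was analysed, 3 in each of 6 groups taken from the sample titles. The deposited values were whole counts per gene symbol. The authors trimmed the reads, ran STAR against GRCh38 and used featureCounts to obtain these counts, which are not normalized. The annotation they used is a later GENCODE release than v44, which supplied coordinates and lengths here. The strand setting, and whether mates or pairs were counted, are not given in the sources used here.

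Counts were scaled by TMM, filtered with filterByExpr (minimum count 10, minimum total 15) and fitted in edgeR 4.0.16 (R 4.3.3) with all groups in one quasi-likelihood model. P-values were adjusted by Benjamini-Hochberg over all 14557 tested genes of a contrast, with a threshold of 0.05. Fold changes used a prior count of 0.125, and log2 CPM profiles one of 2. The fit was tested on simulated counts. Ratios were compared by exact permutation. The members and lists were chosen with earlier results of these data known. Named genes are the members, the 5 nearest genes to each tested receptor, and from each list up to 3 genes with the largest rise and up to 3 with the largest fall in Model against Con, FUCO-1 against Model and RES against Model. They also had to pass the threshold, average at least 1 CPM and show no overlap of libraries. Not all are printed. ENO3, FBP1, PCK1 and RXRA in FUCO-1, and list genes named only because 5 or fewer passed, were chosen after their values were seen. The table mapped every sample column to a library.

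The alternatives were RLE factors, 2 other filters, DESeq2 1.42.0, fits of 2 groups, a replicate block, a prior count of 2, the added threshold of an absolute log2 fold change over 1, CPM by library total, and leaving out each library. Replicate numbers were not used as pairs in the main fit. Deviations of same-numbered libraries correlated at −0.20 to 0.19, with 7 of 45 pairs over 0.1. In 20 of 45 comparisons a library correlated best with its own number, so a weak pairing was not excluded. Replicate libraries differed by more than sampling noise. In the main fit, edgeR p-values set each group difference against the spread between replicate libraries, estimated over all groups. The paper calls the libraries biological replicates. Whether they came from separate experiments is not given in the sources used here. Reads carry no molecular identifiers.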

Additional observations from a re-analysis of the deposited data

Results flagged for a closer look

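FUCO-2 and FUCO-1 differ in their effect on FFA-treated cells for both NR4A1 and NR4A2, since FUCO-2 against FUCO-1 is the difference between the 2 effects against Model. For NR4A1 the FUCO-1 libraries read 16.1 to 16.3 CPM and the FUCO-2 libraries 22.6 to 39.1 CPM, a log2 fold change of 0.86 (edgeR adjusted p = 0.00336), higher in 3 of 3 FUCO-2 libraries. For NR4A2 the ranges were 5.14 to 6.39 and 10.97 to 17.3 CPM, a log2 fold change of 1.15 (edgeR adjusted p = 9.74e-05), again higher in 3 of 3. Both passed with each single library left out, at 0.60 to 1.02 and 0.91 to 1.27. In the same contrast 4.07% of all tested genes were higher at an adjusted p under 0.05, and 11.1% were higher without overlap of libraries. The effects against Model led to the choice of the family, so these p-values are not independent of it.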

How the results depend on the processing

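With RLE factors, or a minimum of 10 counts in every library, each member contrast that could be fitted kept its direction and its side of the threshold, and CPM by library total moved 1 level beyond 1 SD, that of NR4A2 in RES (18.2, beside 18.2 in Model). With a prior count of 2, NR4A1AS in FUCO-2 against Model was −1.91. DESeq2 gave −0.45 for NR4A1 in RES against Model, past the threshold of adjusted p only in edgeR. For FUCO-1 against FUCO-0.5, NR4A1 passed without a filter (−0.76) and with 2 groups (−0.77), and NR4A2 without a filter (−0.89), in DESeq2 (−0.89) and with 2 groups (−0.89). NR4A2 in RES against FUCO-2 did not pass with 2 groups (0.38). With the replicate block, NR4A1 (−0.75) and NR4A2 (−0.89) in FUCO-1 against FUCO-0.5 passed and 8 genes were called there, while no other member's call changed; all 3 libraries correlated best with their own number in 1 of 15 contrasts. Genes called without a filter were 354 in FUCO-0.5 against Model (211 reported) and 144 in FUCO-1 against FUCO-0.5 (1 reported), where DESeq2 called 57. With 2 groups they were 351 in FUCO-0.5 and 976 in FUCO-1 against Model (467 reported), 2201 in FUCO-2 against Con (3617 reported), and 18, 1297 and 533 in FUCO-1 against FUCO-0.5, FUCO-2 against FUCO-0.5 (2200 reported) and FUCO-2 against FUCO-1 (917 reported). With an absolute log2 fold change over 1 added, they were 284 in Model against Con, 39, 72, 233 and 1443 in FUCO-0.5, FUCO-1, FUCO-2 and RES against Model, 347, 340, 461 and 1934 in the same groups against Con, and 0, 157 and 84 in the 3 dose contrasts. Leaving out each library gave, for NR4A1, −0.53 to −0.37 in RES against Model, −0.51 to −0.086 in FUCO-0.5 and −0.41 to 0.0095 in FUCO-2 against Con, −0.92 to −0.50 in FUCO-1 and −0.17 to 0.36 in FUCO-2 against FUCO-0.5. For NR4A2 it gave −0.13 to 0.16 in FUCO-0.5 against Con, −1.02 to −0.73 in FUCO-1 against FUCO-0.5 and 0.24 to 0.60 in RES against FUCO-2. For NR4A1AS it gave 0.90 to 1.82 in Model against Con, −0.39 to 0.54 in FUCO-0.5 and −0.55 to 0.38 in FUCO-1 against Con, and −0.36 to 0.089 in FUCO-1 against FUCO-0.5, where Con replicate 1 or single FUCO libraries turned the sign. Called genes ranged from 1597 to 3047 in Model against Con, 110 to 290, 220 to 661 and 1972 to 3366 in the FUCO doses against Model, 1634 to 3266 in FUCO-1 against Con, 0 to 20, 1341 to 2541 and 366 to 1228 in the dose contrasts. The causes were not tested. Low counts limit NR4A1AS (4 to 54 per library) and NR4A3.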
